A study of Mus musculus with 9 samples.

Results

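Cholesterol synthesis was examined at its late end, in 9 genes of enzymes that act between oxidosqualene and cholesterol: Lss, Cyp51, Tm7sf2, Msmo1, Nsdhl, Hsd17b7, Ebp, Sc5d and Dhcr7. They are not the complete set of late enzymes, and counts such as 9 of 9 refer to these genes alone. The members were taken from a list of gene symbols, with no threshold on their values, and each symbol matched 1 of the 57180 genes of the deposited table. This list and the comparison lists were, however, chosen with earlier results of these data known. The RNA came from whole hippocampus of 11-day-old C57BL6 mice. The conditional knockout group (cKO) comprised 4 animals, 3 males and 1 female, that lacked Slc38a3 selectively in endothelial cells. Slc38a3 encodes SNAT3, a sodium-coupled glutamine transporter. The wild-type group (WT) comprised 5 animals, 1 male and 4 females. The sources used here name neither the promoter that drives the deletion, nor any floxed allele or Cre in the WT animals, nor the litters.

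Cholesterol in the brain is made locally, because lipoproteins of the blood do not cross the blood-brain barrier, and in the young brain astrocytes and oligodendrocytes make much of it. After squalene is epoxidised, LSS closes the rings to form lanosterol, and the enzymes that follow remove methyl groups and move or reduce double bonds until cholesterol is reached. Transcription of these genes is driven largely by SREBP2, a factor released from the endoplasmic reticulum when its sterol content falls, which acts with the factors NF-Y and Sp1 bound nearby.

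Promoter sequence is shown for 4 members: Nsdhl, with the largest difference between the groups, Lss, with the smallest, and Cyp51 and Hsd17b7. The latter hold a match to the sterol element TCACCTCA. Msmo1, with a match to the sterol element TCACNCCA, is not shown. Each run is the 250 bases before the annotated start, 5′ to 3′ on the gene's strand, from RefSeq on GRCm38.p6, and the capitals mark motif matches. The windows are chrX:72918271-72918520 (plus strand) for Nsdhl, chr10:76531355-76531604 (plus strand) for Lss, chr5:4104698-4104947 (minus strand) for Cyp51 and chr1:169969206-169969455 (minus strand) for Hsd17b7.
Nsdhl: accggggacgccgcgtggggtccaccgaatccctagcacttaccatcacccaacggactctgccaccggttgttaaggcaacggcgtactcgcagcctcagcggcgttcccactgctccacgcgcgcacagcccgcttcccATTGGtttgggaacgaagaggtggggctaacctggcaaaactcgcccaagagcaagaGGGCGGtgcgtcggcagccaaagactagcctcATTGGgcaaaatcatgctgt
Lss: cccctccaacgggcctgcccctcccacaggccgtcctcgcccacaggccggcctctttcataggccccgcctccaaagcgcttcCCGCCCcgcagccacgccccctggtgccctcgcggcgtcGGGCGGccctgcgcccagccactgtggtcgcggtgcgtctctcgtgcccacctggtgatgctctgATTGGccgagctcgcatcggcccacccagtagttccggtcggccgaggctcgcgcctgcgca
Cyp51: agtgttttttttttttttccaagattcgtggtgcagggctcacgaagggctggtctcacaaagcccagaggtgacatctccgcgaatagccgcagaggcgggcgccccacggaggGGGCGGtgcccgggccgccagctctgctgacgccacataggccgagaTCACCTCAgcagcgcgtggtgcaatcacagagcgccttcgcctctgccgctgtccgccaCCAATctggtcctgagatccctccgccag
Hsd17b7: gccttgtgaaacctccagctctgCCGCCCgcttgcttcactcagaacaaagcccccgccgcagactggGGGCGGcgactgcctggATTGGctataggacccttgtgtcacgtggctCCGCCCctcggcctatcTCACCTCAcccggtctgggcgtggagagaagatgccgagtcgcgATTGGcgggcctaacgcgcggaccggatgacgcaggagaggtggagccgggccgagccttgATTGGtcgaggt

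The motifs searched, on both strands, were the CCAAT box CCAAT, to which NF-Y binds, the GC box GGGCGG of Sp1, and the sterol elements TCACNCCA and TCACCTCA. The first sterol element ends in letters that can begin a CCAAT box. The element TCACCTCA was added after the promoters had been seen, so its number among the members is no test of enrichment. All 9 members were matched in RefSeq, in 11 windows. Each of the 9 held a CCAAT box and each held a GC box in at least 1 window, against 40.01% and 61.54% of the 12300 tested genes that were matched. TCACCTCA lay in Cyp51, from 88 to 81 bases before the start, and in Hsd17b7, from 117 to 110 bases before it, against 1.04% of the tested genes. TCACNCCA lay in Msmo1 alone among the members, against 4.04% of the tested genes. In Nsdhl and Lss, at the ends of the range of response, the letters of neither sterol element occurred in these 250 bases. Lss held 1 CCAAT box and 2 GC boxes, and Nsdhl held 2 CCAAT boxes and 1 GC box. Of the other members, Cyp51, Sc5d and Tm7sf2 held 1 CCAAT box each, Ebp held 2, and Msmo1 and Hsd17b7 held 3. Dhcr7 held 2 in 1 of its windows. A link of these numbers to the differences between the groups was not tested. These matches describe letters and are not binding sites measured here.

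Slc38a3 itself was at 379.8, 405, 308 and 310.2 normalized counts in cKO replicates 1 to 4 and at 3392, 2033, 3514, 3363 and 1804 in WT replicates 1 to 5. The groups did not overlap (log2 fold change -2.99 ± 0.221, limma adjusted p = 5.54e-05, exact two-sided permutation p = 0.00794, the smallest 126 splits allow), and WT replicates 2 and 5 were the lowest WT libraries. The libraries held 30803135 to 34034530 reads each. The hippocampal markers Prox1, Wfs1, Neurod6 and Zbtb20 were detected in every library.

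Mean levels of the late sterol enzymes were lower in the cKO hippocampus, and 3 of the 9 passed the test. All 9 had a log2 fold change below 0, with a median of -0.26, while the median over the 17036 genes tested was -0.0034 and 51.2% of those genes were below 0. Nsdhl, Cyp51 and Sc5d fell (limma-trend with sex as a term, Benjamini-Hochberg adjusted p under 0.05 over all genes tested), none of the 9 rose, and 6 did not pass. Over all genes, 0.223% were called lower by this rule. In 8 of the 9 enzymes, all but Lss, every cKO library lay below every WT library, against 3.72% of all genes tested. Because the members were chosen with earlier results of these data known, these shares are no test of enrichment. Mean levels in cKO were 4.70% (Lss) to 22.1% (Hsd17b7) below those of WT. In bulk tissue, fewer cells that make sterols and less RNA per cell cannot be told apart.

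**Figure D1:**
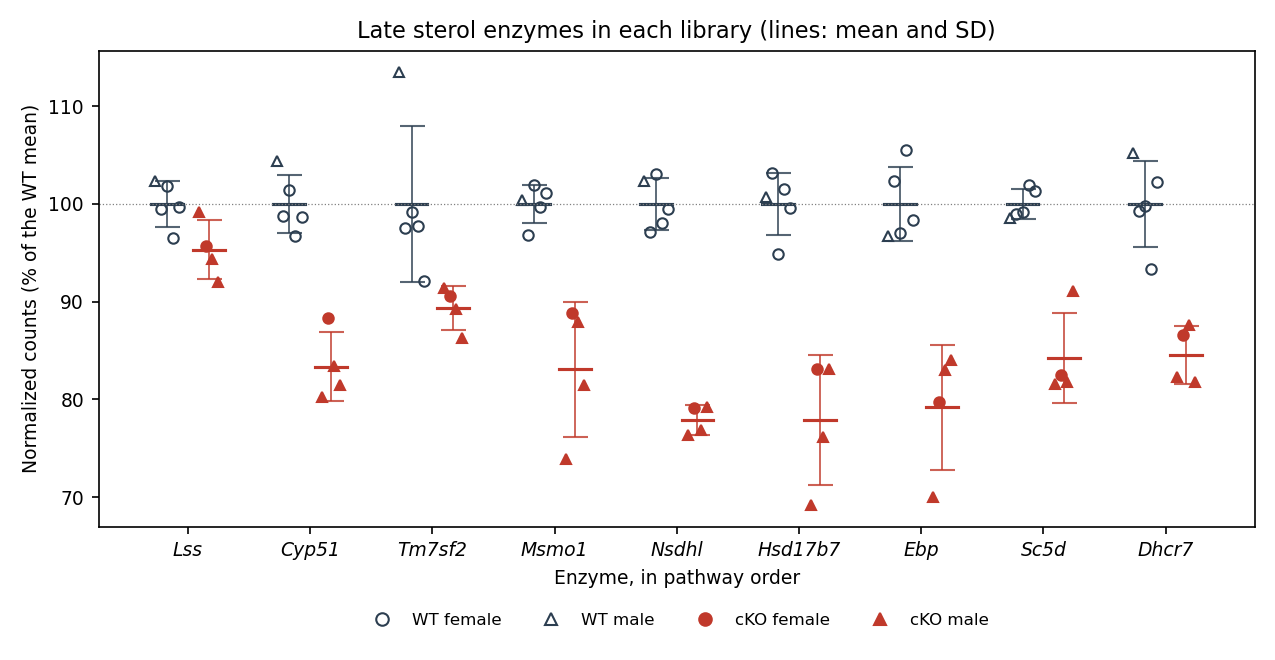
Normalized counts of the 9 enzymes in each library as a percentage of the WT mean of that gene. The genes run in pathway order, filled red points are cKO, open points are WT, triangles are males and circles females, and lines give the mean and SD (n = 4 and n = 5). The 4 cKO points of Nsdhl lie between 76.3% and 79.3%, below all WT points, while those of Lss lie between 92.0% and 99.2% and overlap WT.

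At the entry of the late pathway, Lss (ENSMUSG00000033105, chromosome 10, 76367421 to 76392972 in GRCm39), whose product forms lanosterol, was the member with the smallest difference. Its cKO replicates 1 to 4 held 2082, 2007, 1979.6 and 1931 normalized counts, the deposited unit, in which read counts of a gene are scaled by the library's size factor. The WT replicates 1 to 5 held 2149, 2088, 2138, 2026 and 2093. The groups overlapped, because cKO replicate 1 lay above WT replicate 4. The log2 fold change was -0.08 ± 0.0451 (SE, 95% interval -0.18 to 0.017) at a limma adjusted p = 0.526.

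Cyp51 (ENSMUSG00000001467, chromosome 5, 4131144 to 4154746) encodes the cytochrome P450 that removes the 14-alpha methyl group of lanosterol. It was at 3578, 3937, 3717 and 3631 normalized counts in cKO replicates 1 to 4 and at 4653, 4404, 4521, 4311 and 4399 in WT replicates 1 to 5. The groups were separated by 375 normalized counts, with the cKO female, replicate 2, nearest to WT. Cyp51 fell 1.19-fold, with a log2 fold change of -0.26 ± 0.0460 (SE) at a limma adjusted p = 0.0354. The call held without cKO replicate 2, cKO replicate 4 or WT replicate 4. It was lost without any other library, with the log2 fold change at -0.16 (adjusted p = 0.218) without WT replicate 1, the WT male.

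Tm7sf2 (ENSMUSG00000024799, chromosome 19, 6112850 to 6118403) encodes a sterol C14 reductase, an activity it shares with the lamin B receptor. Its cKO replicates held 1029, 1019, 1004 and 971 normalized counts and its WT replicates 1277, 1098, 1117, 1100.5 and 1037. The groups came within 7.45 normalized counts of each other, and WT replicate 1 stood above the other WT libraries. The log2 fold change was -0.22 ± 0.0621 (SE) at a limma adjusted p = 0.199. It was -0.09 without WT replicate 1, reached -0.35 without cKO replicate 2, and passed in neither. Lbr, the gene of the lamin B receptor, averaged 477 ± 17.6 (SD) over the 4 cKO libraries and 479.8 ± 39.1 over the 5 WT libraries, with a log2 fold change of 0.07 ± 0.0734, which was 0.0092 without WT replicate 1 but 0.14 without cKO replicate 2.

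The methyl groups at carbon 4 are removed by 3 enzymes that act in turn. Msmo1 (ENSMUSG00000031604, chromosome 8, 65171172 to 65186826), the methylsterol oxidase, was at 2508, 3015, 2983 and 2766 normalized counts in cKO and at 3408, 3283, 3459, 3382 and 3430.3 in WT. The groups did not overlap, and the cKO libraries were more spread than the WT libraries (SD 234.5 and 67.4). The log2 fold change was -0.24 ± 0.0582 (SE) at a limma adjusted p = 0.146.

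Nsdhl (ENSMUSG00000031349, chromosome X, 71962162 to 72002120) encodes the sterol dehydrogenase that decarboxylates the oxidised carbon 4, and its loss in mice causes the X-linked bare patches trait. Its cKO replicates held 1127, 1168, 1135 and 1170.2 normalized counts, within a narrow range, and its WT replicates 1511, 1433, 1522, 1447 and 1468. The groups were 263 normalized counts apart. Nsdhl fell 1.29-fold, the most of the 9, with a log2 fold change of -0.36 ± 0.0477 (SE) at a limma adjusted p = 0.00410, and ranked 13 by p among all genes tested. The call held with 7 of the 9 libraries left out in turn. Without cKO replicate 2 the log2 fold change was -0.40 (adjusted p = 0.0679) and without WT replicate 1 it was -0.33 (adjusted p = 0.0956).

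Hsd17b7 (ENSMUSG00000026675, chromosome 1, 169777103 to 169796810) encodes the 3-keto reductase that completes the demethylation. It was at 882, 1059.6, 971 and 1059.9 normalized counts in cKO and at 1284, 1316, 1209.8, 1295 and 1269.95 in WT. The groups did not overlap, and cKO replicate 1 was the lowest. The log2 fold change was -0.33 ± 0.0673 (SE) at a limma adjusted p = 0.0602, and -0.36 without cKO replicate 4, where it passed (adjusted p = 0.0362).

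The last steps move and reduce double bonds of the ring. Ebp (ENSMUSG00000031168, chromosome X, 8051567 to 8059751), the sterol isomerase and the other X-linked member, was at 319, 363, 378 and 383 normalized counts in cKO and at 441, 466, 442, 481 and 448 in WT. It had the fewest counts of the 9, and its log2 fold change of -0.32 had the widest error, ± 0.0821 (SE) at a limma adjusted p = 0.161. The groups did not overlap.

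Sc5d (ENSMUSG00000032018, chromosome 9, 42162890 to 42175552) encodes the desaturase that makes 7-dehydrocholesterol, also the precursor of vitamin D. It was at 2623, 2652, 2628 and 2927 normalized counts in cKO and at 3167, 3182, 3187, 3277 and 3257 in WT. The groups did not overlap, although cKO replicate 4 lay well above the other cKO libraries. Sc5d fell 1.19-fold, with a log2 fold change of -0.25 ± 0.0478 (SE) at a limma adjusted p = 0.0420. That call was lost on leaving out any library except cKO replicate 4, without which the log2 fold change was -0.28 (adjusted p = 0.0114). The largest adjusted p, 0.424, came without cKO replicate 2.

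Dhcr7 (ENSMUSG00000058454, chromosome 7, 143376881 to 143402147) encodes the reductase that turns 7-dehydrocholesterol into cholesterol and is mutated in Smith-Lemli-Opitz syndrome. Its cKO replicates held 2137, 2248, 2273 and 2122 normalized counts and its WT replicates 2730.4, 2578, 2591, 2424 and 2654. The groups did not overlap and were 151 normalized counts apart. The log2 fold change was -0.26 ± 0.0505 (SE) at a limma adjusted p = 0.0568, and -0.27 without WT replicate 4, where it passed (adjusted p = 0.0443).

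3 members share part of their span with another gene of the table. Akap9 overlaps Cyp51 by 167 bases and was at 3882 ± 356 normalized counts in cKO and 3755 ± 198 in WT. Vps51 overlaps Tm7sf2 by 533 bases and was at 1426 ± 76.2 in cKO and 1339.5 ± 52.4 in WT, so neither neighbour had a lower mean in cKO. With sex as a term the log2 fold change was -0.02 ± 0.0627 for Akap9 and 0.096 ± 0.0571 for Vps51, and neither passed. The sign turned in 5 of the 24 alternatives for Akap9 and in 2 for Vps51. The lncRNA 4930483K19Rik overlaps Lss and held 1 read in 1 of the 9 libraries. The strand setting of the counting is not given, so reads of overlapping genes cannot be told apart.

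Across libraries, cKO replicate 1 was the lowest of all 9 in 6 of the 9 enzymes and cKO replicate 4 in the other 3. The mean deviation of the members from the WT mean, on the log2 scale, was -0.32 in cKO replicate 1, -0.22 in the cKO female (replicate 2), -0.25 in replicate 3 and -0.24 in replicate 4. In the 5 WT libraries it ran from -0.01 to 0.04, with WT replicate 1, the WT male, the highest. Averaged over the members, the 4 cKO libraries thus lay below the 5 WT libraries. The enzyme that deviated least from WT was Lss in each of the 4 cKO libraries.

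Sex was unevenly divided between the groups, and Nsdhl and Ebp lie on the X chromosome. None of the 9 enzymes differed between males and females (limma, adjusted p under 0.05), against 0.0528% of all genes tested, and none had an unadjusted p under 0.05 (0 passed by edgeR and by DESeq2). The male minus female log2 difference was 0.0071 ± 0.0477 (SE) for Nsdhl and -0.04 ± 0.0821 for Ebp. The cKO female lay below all 4 WT females in 9 of 9 enzymes, against 27.8% of all genes, and the WT male lay above all 3 cKO males in 9 of 9, against 27.0%. For 8 of the 9, all but Lss, both orders already follow from the separation of all libraries given above. Without the sex term 7 of the 9 passed, all but Lss and Tm7sf2, against 0.939% of all genes called lower. The interaction of sex and genotype passed in 0 of 9 (limma, with 2 of 9 at an unadjusted p under 0.05, and no other tool run), against 0.00587% of all genes. That interaction was -0.19 ± 0.0756 (SE) for Cyp51 and -0.26 ± 0.104 for Tm7sf2, and rests on 1 cKO female and 1 WT male.

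How many enzymes passed depended on the libraries and the model, while all 9 stayed below 0 in each of the 24 alternatives. With all libraries 3 passed. Leaving out WT replicate 1 gave 0, leaving out cKO replicate 1, 2 or 3 or WT replicate 2, 3 or 5 gave 1 each, and leaving out WT replicate 4 or cKO replicate 4 gave 3 and 4. The 1 enzyme was Nsdhl, except without cKO replicate 2, where it was Cyp51. The number of genes passing in all moved too, from 59 with all libraries. Leaving out cKO replicate 1, 3 or 4 gave 28, 47 and 65 genes. Leaving out WT replicate 2, 3, 4 or 5 gave 29, 48, 40 and 30. Without WT replicate 1 or cKO replicate 2 the genotypes are compared within 1 sex, with a median log2 fold change over the 9 of -0.19 and -0.33. DESeq2 on the recovered reads called 6, with 200 genes called in all. With edgeR 2 were called, Cyp51 and Nsdhl, and 57 genes in all, against 59 genes in the main fit. Without WT replicates 2 and 5, those with the lowest Slc38a3 in WT, Nsdhl alone passed (log2 fold change -0.37, adjusted p = 0.0395).

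**Figure D2:**
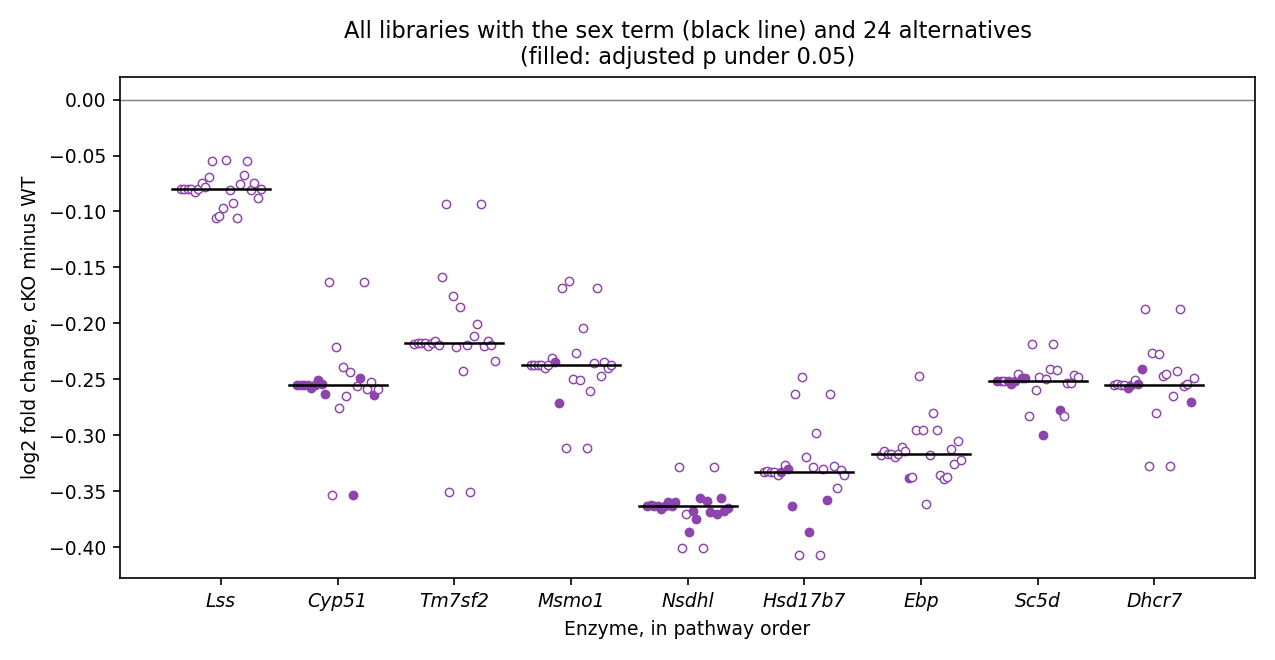
Log2 fold change (cKO minus WT) of each enzyme with all libraries and sex as a term (black line) and under 24 alternatives (points, filled where the adjusted p was under 0.05). All points lie below 0, with Lss between -0.11 and -0.05 and Nsdhl between -0.40 and -0.33, where 19 of 24 alternatives passed.

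The steps before lanosterol showed the same direction. Of 10 mevalonate pathway enzymes up to squalene epoxidase, 4 fell, 0 rose and 6 did not pass, all 10 log2 fold changes were below 0, and the median was -0.27. Squalene epoxidase, Sqle, which makes the substrate of LSS, averaged 4761 ± 214 normalized counts over the 4 cKO libraries and 5875 ± 112 over the 5 WT libraries (SD), a log2 fold change of -0.29 ± 0.0435 (SE) at a limma adjusted p = 0.0118. Hmgcs1, the cytosolic HMG-CoA synthase, and Fdft1, the squalene synthase, were also among those that fell (log2 fold change -0.31 ± 0.0406 and -0.33 ± 0.0554, adjusted p = 0.00374 and 0.0250). None of the 10 passed without WT replicate 1. Fdft1 was at a log2 fold change of -0.21 without WT replicate 1, and its call was also lost without WT replicate 2. Lss therefore had a smaller estimate than its neighbours on either side, Sqle and Cyp51. The 95% interval of Lss, -0.18 to 0.017, did not meet that of Sqle, -0.38 to -0.196, but met that of Cyp51, -0.35 to -0.16. The differences between genes were not tested.

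**Figure D3:**
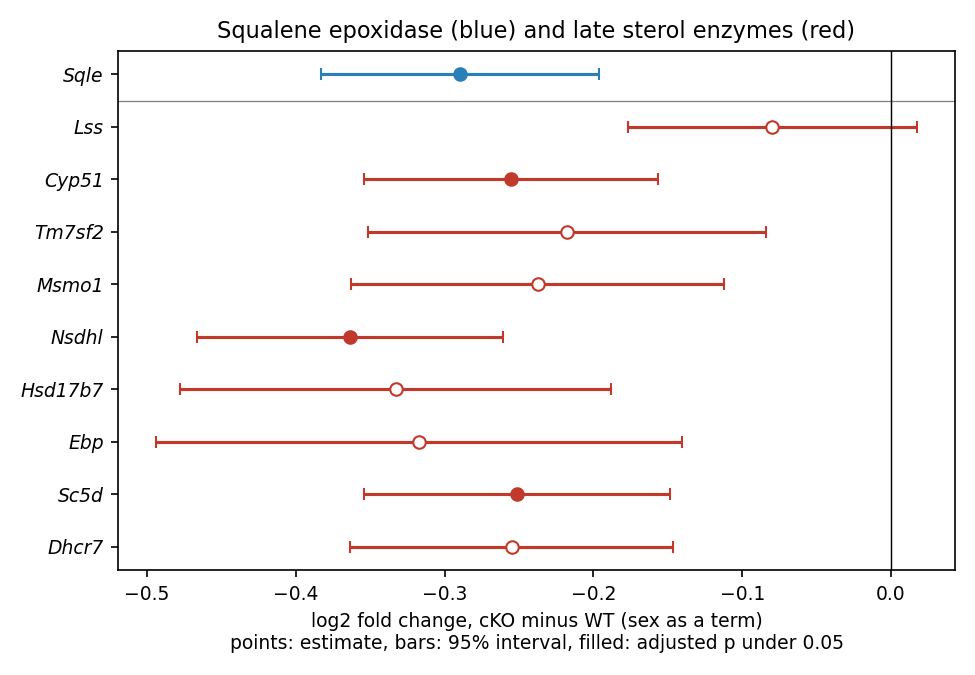
Log2 fold change (cKO minus WT, sex as a term) with its 95% interval for Sqle (blue), the step before Lss, and the 9 late sterol enzymes (red), in pathway order from top to bottom. Filled points passed, Sqle above the line and 3 enzymes below it, and among the 9 the interval of Lss alone crosses 0.

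No partner of the late enzymes passed. The list comprises electron donors, the scaffold of the carbon 4 complex, relatives of EBP and the ligase that degrades squalene epoxidase. Of 12 such genes 0 passed (limma, 2 at an unadjusted p under 0.05, with 0 called by edgeR and 1 by DESeq2), 10 had a log2 fold change below 0 and the median was -0.06. Cyb5b, a cytochrome b5 of the outer mitochondrial membrane, was at 5871 ± 49.7 normalized counts in cKO and 6533 ± 59.8 in WT, without overlap (log2 fold change -0.15 ± 0.0349), and did not pass after adjustment (limma unadjusted p = 0.000812). Ebpl, the paralog of Ebp, averaged 398 ± 7.43 in the cKO and 437 ± 7.43 in the WT libraries, also without overlap (-0.13 ± 0.0660, adjusted p = 0.472). Erg28, the scaffold that holds the carbon 4 enzymes together, averaged 1122 ± 57.8 in the cKO and 1206 ± 39.9 in the WT libraries (-0.09 ± 0.0564, adjusted p = 0.586), with overlap, and its log2 fold change was -0.041 without WT replicate 1 but -0.14 without cKO replicate 2.

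Among 12 genes of SREBP control and sterol uptake, 1 fell, 11 did not pass, 8 were below 0 and the median was -0.08. The gene that fell was Stard4, which encodes a sterol carrier (log2 fold change -0.43 ± 0.0598, limma adjusted p = 0.00642), and its call was lost without cKO replicate 2 or WT replicate 1. Srebf2, the gene of SREBP2, was at 7678 ± 318 normalized counts in cKO and 8871 ± 208 in WT, without overlap (-0.21 ± 0.0435, adjusted p = 0.0719). Insig1, which retains SREBP in the endoplasmic reticulum, was at -0.19 ± 0.0593 (adjusted p = 0.247), with -0.098 without WT replicate 1 but -0.29 without cKO replicate 2. Of 11 genes of sterol removal and LXR signalling 0 passed (limma, 1 at an unadjusted p under 0.05, and 0 by edgeR and by DESeq2), 3 were below 0 and the median was 0.04. The gene with the smallest p there was Ch25h, which makes 25-hydroxycholesterol, at 22.3 ± 8.04 normalized counts for cKO and 10.2 ± 2.83 for WT (log2 fold change 1.12 ± 0.395, adjusted p = 0.309).

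Levels of different enzymes were compared per length, as normalized counts per kilobase of the principal transcript in GENCODE M21. In WT the order from the highest was Msmo1 (1660 ± 33.0, SD, n = 5), Cyp51 (1134 ± 33.6), Dhcr7 (922 ± 40.3), Tm7sf2 (765 ± 61.2), Nsdhl (681 ± 17.9), Sc5d (671 ± 10.3), Lss (449.7 ± 10.4), Hsd17b7 (276 ± 8.71) and Ebp (261 ± 9.99). Dhcr7 and Tm7sf2, Nsdhl and Sc5d, and Hsd17b7 and Ebp were neighbours whose libraries overlapped. In cKO the order of levels was the same except that Sc5d (566 ± 30.7, SD, n = 4) stood above Nsdhl (530.4 ± 10.4). The order depends on the length: with the union of all annotated exons Cyp51 was the highest in WT at 1009.7 ± 29.95 and Msmo1 was at 552 ± 11.0.

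**Figure D4:**
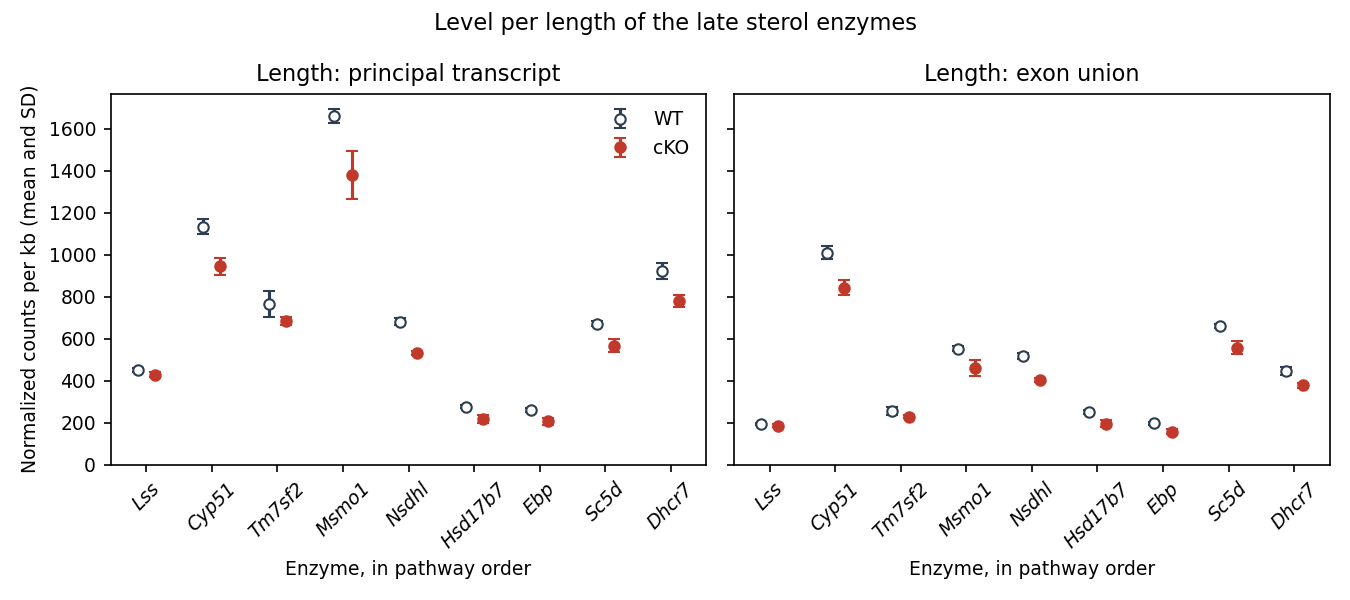
Normalized counts per kilobase (mean and SD) of the 9 enzymes in WT (open, n = 5) and cKO (filled, n = 4), with the length of the principal transcript on the left and of the union of exons on the right. The cKO mean lies below the WT mean in all 9, and Msmo1 in WT is at 1660 on the left and 552 on the right.

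Markers of the cell types in the tissue were set beside the enzymes. Of 10 astrocyte markers Kcnj10 (log2 fold change -0.54) and Aqp4 (-0.35) fell, and S100b (0.35) and Gfap (0.29) rose. Slc1a3 was higher in cKO without overlap, at 27068 to 30337 normalized counts against 25138.5 to 26464 in WT. Slc1a3 did not pass (log2 fold change 0.17, limma adjusted p = 0.134). These genes are named here after their values were seen. The groups overlapped for S100b and Gfap, with cKO over WT ratios of means of 1.17 and 1.15. The summed level ran from 156428 to 165787 normalized counts in cKO and from 156814 to 173197 in WT. Much of it was Slc1a2, with means of 87340 in cKO and 88713 in WT. Of 8 myelin markers 0 passed (limma, 1 at an unadjusted p under 0.05, 0 by edgeR and by DESeq2), with sums of 21713 to 33386 in cKO and 21363 to 31911 in WT. Of 8 neuronal markers 0 passed (limma, 3 at an unadjusted p under 0.05, 0 by edgeR and by DESeq2), with sums of 204419 to 213370.0 in cKO and 214323 to 222570.1 in WT. The sums of 5 oligodendrocyte precursor markers were also lower without overlap, at 11983 to 12859 in cKO and 12885 to 14067 in WT, and those of 6 microglial markers at 7552 to 8420 and 8608 to 9284. Endothelial sums were at 6199.8 to 6837 in cKO and 6977 to 7712 in WT, with Flt1 as the 1 of 6 markers that passed (-0.34, limma adjusted p = 0.0417). Mural sums were at 7928 to 9496 and 9593 to 10628. A sum follows the genes with the most counts, such as the mural Rgs5 (mean 6865 in cKO, 8132 in WT). Taken singly, 2 of 8 neuronal, 1 of 5 precursor, 3 of 6 microglial, 2 of 6 endothelial and 1 of 4 mural markers were lower without overlap. Of all genes tested 3.72% were. The log2 fold change was below 0 in 5 of 5 precursor, 5 of 6 microglial, 6 of 8 neuronal, 4 of 6 endothelial and 3 of 4 mural markers. It was below 0 in 3 of 3 blood, 4 of 4 hippocampal, 4 of 10 astrocyte and 0 of 4 choroid plexus markers, and in 51.2% of all genes tested. Meningeal and fibroblast sums overlapped, at 7498 to 9027 in cKO and 5352 to 8939.7 in WT, with 0 of 7 passing (limma, 4 at an unadjusted p under 0.05, 0 by edgeR and by DESeq2). A log2 fold change below 0 was found in 1 of the 7 meningeal genes, with a median of 0.36, and in 0 of the 8 myelin markers, with a median of 0.27. Choroid plexus sums ranged widely in both groups, from 543.8 to 32598 in cKO and 569 to 43162 in WT, and blood sums overlapped at 1280.03 to 1773 and 1601 to 2513. No marker of these lists was at 0 in any library.

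When the averaged log2 level of the meningeal list, 7 genes, entered the model as a covariate, 0 of the 9 enzymes passed (7 at an unadjusted p under 0.05). Over all 17036 genes tested, 5 passed in that fit, against 59 in the main fit, and 1170 had an unadjusted p under 0.05. All 9 stayed below 0, with a median of -0.23 and a median SE of 0.0679 in place of 0.0505, and Nsdhl was at -0.37 ± 0.0655 (limma adjusted p = 0.0971). With the mean of the 10 astrocyte markers Nsdhl passed alone among the 9, at -0.39 ± 0.0548 (adjusted p = 0.0165), and 23 genes passed in all. With the mean of the 8 myelin markers Nsdhl, Hsd17b7 and Sc5d passed, and 56 genes in all. The part of the precursor, neuronal, microglial and vascular markers in the result was not tested.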

How the data were processed

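RNA of 9 hippocampi (4 cKO, 5 WT) was sequenced from stranded libraries made together, per the labels' protocols. The submitters' processing notes list STAR 2.7.10b, DESeq2 1.41.8, cutadapt 4.4 and FastQC 0.12.1, with the build GRCm39. The read counter, annotation release and strand setting were not stated there. The values deposited by the authors are a signal per gene, namely normalized counts, in which 1 size factor scales all genes of a library. Whole reads, within 0.1 read, were recovered for 100% of values above 0, although for 3 libraries (WT replicates 1 and 4, cKO replicate 1) the step is too close to 1 to be told from rounding at low values. Replicates were numbered in record order, which pairs nothing. Between libraries of the same group the chi-square per gene was 3.63 to 13.1, so none was merged as a duplicate. Litters are unstated, so the p-values reflect only how these samples spread, which may be partly technical.

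The test was limma-trend (limma 3.58.1, R 4.3.3), in which log2(normalized count + 1) was modelled by genotype and sex in the 17036 of 57180 genes with a mean of at least 10, with Benjamini-Hochberg adjustment over all of them. A fold change is on that log2 scale, comes from the model with sex, and can differ from the ratio of group means. The narrow range of depth makes counting error alike across libraries. The alternatives were no filter or a mean of at least 50, pseudocounts 0.5 and 5, robust limma, TMM scaling, DESeq2 1.42.0 and edgeR 4.0.16 on recovered reads, marker means as covariates, each sex alone, no sex term, and each library left out in turn. The scripts were tested on simulated data, with a spread set in advance. There 50.7% of 1.25-fold, 74.6% of 1.5-fold and 92.4% of 2-fold changes were called, with 9 false calls among 154. The 9 enzymes were 1.06-fold (Lss) to 1.29-fold (Nsdhl) lower, so not passing does not show a lack of change. Lengths came from GENCODE M21 by gene ID and promoters from RefSeq (GRCm38.p6), while gene positions are those of the deposited table. Tables were read and figures drawn in Python 3.11.15 (matplotlib 3.10.9, numpy 2.4.6, pandas 2.3.3).

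The text names all 9 members, Slc38a3, genes that overlap a member, up to 4 genes of smallest p in each fixed pathway list, and the 5 genes most like the members over libraries. Lbr and Erg28 were named as partners of members, and the hippocampal markers as a check of the tissue. The members and lists were chosen with earlier results of these data known. Some genes that this rule would name are not reported here by name and are included in the counts.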

Additional observations from a re-analysis of the deposited data

Results flagged for a closer look

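Of the 18 sets of libraries examined for an outlying value, 9 enzymes in each of the 2 groups, 1 stood out. Sc5d in cKO replicate 4 was at 2926.86 normalized counts, and the next cKO library was at 2652. That gap was 0.905 of the range of the group, above Dixon's critical value for 4 samples. Chance gives such a value in about 1 of 20 sets. Without that library the log2 fold change of Sc5d was -0.28 ± 0.0394 (SE, limma adjusted p = 0.0114).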

How the results depend on the processing

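All 9 enzymes kept a log2 fold change below 0 in each of the 24 alternatives. Lss and Tm7sf2 passed in none of them, Ebp in 1 and Nsdhl in 19. The number of late enzymes called lower, 3 with all libraries, was 5 with robust limma, 6 with DESeq2, 7 without the sex term, 0 in each sex alone (0 for females, 0 for males), 0 with the meningeal covariate, 1 with the astrocyte covariate and 1 without WT replicates 2 and 5. The number of mevalonate enzymes, 4 with all libraries, was 7 with DESeq2, 7 without the sex term, 0 in each sex alone (0 for females, 0 for males), 0 with the meningeal covariate, 1 with the astrocyte covariate and 1 without WT replicates 2 and 5. Over all genes 59 passed, against 200 with DESeq2, 216 without the sex term, 11 for females alone, 3 for males alone, 5 with the meningeal covariate, 23 with the astrocyte covariate and 15 without WT replicates 2 and 5. Leaving out each library in turn gave 0 to 4 late enzymes, 0 to 4 mevalonate enzymes and 10 to 65 genes in all. Among Slc38a3, the named genes of the pathway lists and the genes that overlap Cyp51 and Tm7sf2, the sign of the log2 fold change turned in 3, none of which passed in any alternative. Markers and the genes most like the members were not recomputed. Lbr was at -0.0058 without the sex term and -0.035 with the meningeal covariate. Akap9 was at 0.045 without the sex term, 0.099 in males, 0.0066 with the meningeal and 0.021 with the astrocyte covariate, and -0.14 to 0.099 with a library left out. Vps51 was at -0.034 in males and -0.034 to 0.22 with a library left out. 0 late enzymes differed between the sexes under any alternative run for it. The fits of each sex rest on 1 cKO female or 1 WT male, which is assumed to vary like the other group. Other pseudocounts, filters, TMM scaling, edgeR and the myelin covariate gave 2 to 4 late enzymes and 53 to 60 genes in all. Robust limma called 77 genes in all. The cause of these changes was not tested. Depth limits Ebp most, with 321 to 479 reads per library. No paired analysis was possible because the labels give no replicate number shared between the groups and the numbers used here only name the libraries.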

Other observations

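After the effects of sex and genotype were removed, the members did not all vary together over the 9 libraries. The correlation of each enzyme with the mean of the other members was 0.75 for Msmo1 and 0.75 for Cyp51, 0.59 for Hsd17b7, 0.56 for Nsdhl and 0.43 for Dhcr7, but 0.27 for Ebp, 0.20 for Tm7sf2, -0.05 for Sc5d and -0.37 for Lss. Lss and Sc5d were the members with a correlation below 0. These are descriptions over 9 libraries that share their preparation and scaling. The 5 genes whose residuals were most like the mean of the members, among 13904 compared with a mean of at least 50, were Pitpnb (r = 0.984), Eid1 (r = 0.984), Ankrd46 (r = 0.978), Klhl5 (r = 0.971) and Arpc2 (r = 0.970). They are the extremes of 13904 genes over only 9 libraries, so values this high can arise among unrelated genes. No link to the members was tested. None of these 5 passed between the genotypes (limma adjusted p from 0.511 to 0.989).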
